A study of Mus musculus with 4 samples.

Results

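Interferon-stimulated genes are switched on in most cell types by interferons, the cytokines of antiviral defence. Here 36 of them were listed by name and followed through single-cell RNA libraries of mouse aorta, and 35 were found by symbol among the 27998 genes of each file. Mx2 was not analysed here. The 35 genes were grouped by the role of their product: 6 sensors of foreign RNA and DNA (Ddx58, Ifih1, Dhx58, Ddx60, Zbp1, Ifi204), 3 transcription factors (Irf7, Irf9, Stat2), 4 RNA-binding Ifit proteins (Ifit1, Ifit2, Ifit3, Ifit3b) and 5 genes of the oligoadenylate synthetase family (Oas1a, Oas2, Oas3, Oasl1, Oasl2). The other groups held 5 effectors that act on membranes, replication or nucleotides (Mx1, Rsad2, Cmpk2, Bst2, Ifitm3), 4 genes of the Isg15 system and ubiquitin ligases (Isg15, Usp18, Herc6, Trim30a), 3 immunity-related GTPases (Ifi47, Igtp, Irgm1) and 5 further genes (Ifi44, Ifi35, Rtp4, Xaf1, Parp14).

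The series asked which cells and genes the intima, the inner lining of the aorta, holds where blood flow is turbulent and where it is not. It has 4 libraries of cells from C57BL/6 mice. Descending a and descending b are libraries of the intima of the descending aorta of aged mice, each pooled from 6 mice. The arch library is intima of the aortic arch of young mice, pooled from 8 mice, and the adventitia library is the outer coat of the aorta of aged mice, for which the number of mice is not stated. The ages come from the library titles, which give no number of weeks, and neither sex nor any treatment of the mice is given. All cells, controls included, were released with trypsin and scraping into a buffer with actinomycin D, which blocks transcription, and red cells were lysed. The labels give the same isolation text for the adventitia.

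Type I interferons bind the receptor pair Ifnar1 and Ifnar2, whose kinases Jak1 and Tyk2 phosphorylate Stat2. Stat2 and Irf9 are part of a complex that binds the interferon-stimulated response element in the promoters of its target genes. Interferon-gamma signals through another receptor and favours, among others, the immunity-related GTPases. Many target genes also keep a low level without added interferon, and in the vessel wall endothelium, fibroblasts and macrophages all carry the receptors.

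The promoters of 5 of the genes are shown because their products follow different patterns in these libraries and because each holds the letters of the interferon-stimulated response element. Each is the stretch of 160 bases just before the RefSeq start of the gene (GRCm38.p6), printed 5′ to 3′ on the strand of the gene. Capitals mark the letters GAAA, any 2 bases and GAAA again, on either strand, so that TTTC, 2 bases and TTTC is the same match on the other strand. They lie at chr4:156200819-156200978 on the minus strand (Isg15), chr8:71537473-71537632 on the minus strand (Bst2), chr11:58199396-58199555 on the plus strand (Igtp), chr19:34583369-34583528 on the plus strand (Ifit3) and chr19:34640729-34640888 on the plus strand (Ifit1). The Ifit1 stretch runs past the start of the gene in GENCODE M21, at 34640871, and the others lie before it.
Isg15: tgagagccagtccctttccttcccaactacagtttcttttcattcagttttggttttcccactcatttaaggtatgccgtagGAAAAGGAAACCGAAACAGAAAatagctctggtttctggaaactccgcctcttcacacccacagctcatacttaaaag
Bst2: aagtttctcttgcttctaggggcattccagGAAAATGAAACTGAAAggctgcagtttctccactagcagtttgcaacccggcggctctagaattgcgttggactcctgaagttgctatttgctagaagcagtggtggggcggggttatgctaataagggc
Igtp: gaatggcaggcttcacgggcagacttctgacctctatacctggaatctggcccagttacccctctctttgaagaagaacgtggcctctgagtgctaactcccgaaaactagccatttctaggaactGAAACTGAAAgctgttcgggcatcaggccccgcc
Ifit3: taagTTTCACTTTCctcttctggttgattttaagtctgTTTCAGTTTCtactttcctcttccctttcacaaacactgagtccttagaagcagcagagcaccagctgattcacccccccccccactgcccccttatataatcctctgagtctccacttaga
Ifit1: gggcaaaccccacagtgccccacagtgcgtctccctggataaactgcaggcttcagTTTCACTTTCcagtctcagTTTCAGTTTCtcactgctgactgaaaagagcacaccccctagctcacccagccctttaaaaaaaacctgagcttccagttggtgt

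RefSeq promoters were matched for 27 of the 35 genes. In the 250 bases before the start, the motif of GAAA, any 2 bases and GAAA was found on either strand in 13 of these 27 (48.1%) and in 936 of the 27025 genes with a promoter (3.46%). The 13 were Isg15, Oas3, Oas1a, Trim30a, Ddx60, Bst2, Stat2, Irgm1, Igtp, Rsad2, Ifit3, Ifit3b and Ifit1. A match is a description of the letters and not a bound site. The Ifit genes are neighbours on chromosome 19, from Ifit2 at 34550694 to Ifit1 at 34650009 (GENCODE M21), and Ifit3 and Ifit3b are near copies whose reads the counting may have split. Dhx58, Irf7, Irf9, Oasl1, Usp18, Ifi47, Igtp, Ifi35 and Rtp4 overlap another counted gene, so their counts are less certain.

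After filters, 1988 cells of descending a, 2091 of descending b, 2114 of the arch and 7851 of the adventitia were analysed. Their median depth was 5198.5, 4872, 6952 and 2473 unique molecular identifiers (UMIs, which count captured RNA molecules). Libraries shared between 4 and 31 barcodes. Clusters were built without the listed genes and without other interferon genes, so that these could not shape the classes, and were named from markers. Endothelial-like cells made 1462, 1285, 1243 and 370 in this order, fibroblast-like cells 337, 649, 436 and 1431, and macrophage-like cells 81, 70, 115 and 657. Macrophages were divided into a Lyve1 type (57, 52, 40 and 266 cells), with the vessel macrophage genes Lyve1 and F13a1, and an intima resident type (24, 18, 75 and 0 cells), with the integrin Itgax and the elastase Mmp12. The other macrophages of the adventitia were of neither type and lay in unnamed subclusters of 262, 114 and 15 cells. Itgax was at 0 CPM (UMIs per 1000000 UMIs of the class) in the Lyve1 type of the 3 intimal libraries and at 188, 191 and 180 in the intima resident type. Different clusters held the classes in different libraries: most endothelial cells of the descending libraries lay in clusters 0 and 5, those of the arch in clusters 8 and 10 and those of the adventitia in cluster 14. The labelled tissue of the adventitia held endothelial cells in which Pecam1 was at 599 CPM, against 2785 to 4036 in the intima.

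Levels are given in CPM of all UMIs summed over the cells of a class in a library, with exact Poisson intervals that cover counting error only. Summed over the 35 genes, the level in endothelium was 3978 in descending a, 4954 in descending b, 3595 in the arch and 3378 in the adventitia. In fibroblasts it was 3507, 4090, 3620 and 3748. The Lyve1 type stood at 6639, 5451, 5612 and 4159, above both classes in every library. The intima resident type stood at 1341, 997 and 1334 in descending a, descending b and the arch, below every one of those sums. The unnamed macrophage subclusters of the adventitia stood at 3334, 3108 and 2868. Mesothelial-like cells, which line the body cavities, had 3919 in the arch library and 6709 in the adventitia, and monocyte-like cells of the adventitia had 5967. B-cell-like cells of the adventitia had 883 and T-cell-like cells 1053 in the arch and 1233 in the adventitia. Cells named from red-cell genes had 553 in descending a, 623 in the arch and 762 in the adventitia.

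Most of these UMIs came from a pair of genes. Bst2, which tethers budding virus to the cell surface, and Ifitm3, which blocks viral fusion, made 48.5% to 83.9% of the summed UMIs in the named classes above. Ifitm3 was at 2564, 3059, 2213 and 1861 CPM in endothelium of descending a, descending b, arch and adventitia, and at 296, 309 and 465 in the red-cell class of descending a, arch and adventitia. Bst2 was at 371, 475, 418 and 431 in endothelium and at 55.9, 77.9 and 43.4 in the red-cell class. These are sums over cells, so fewer cells with the RNA and less RNA per cell cannot be told apart in them.

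**Figure D1:**
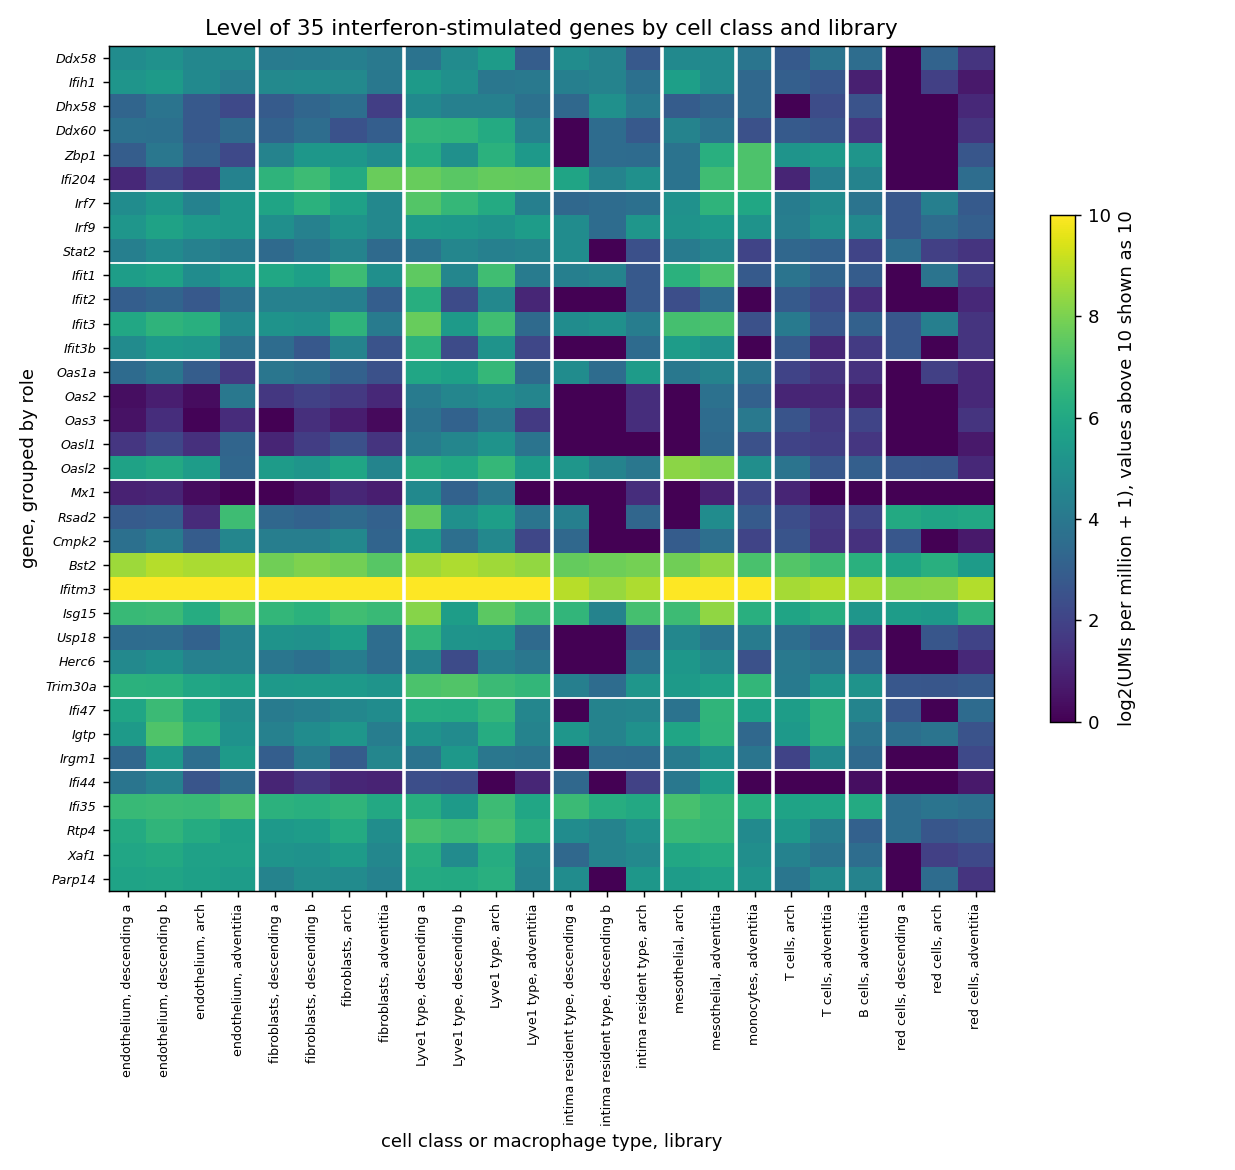
Level of each of the 35 genes (rows, grouped by role) in each cell class or macrophage type and library (columns), as log2 of CPM plus 1, with values above 10 drawn as 10. Bst2 and Ifitm3 are bright in almost every column.

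Macrophages of the intima were set against the endothelium of the same 3 libraries, with the library as a block. By edgeR's quasi-likelihood test, adjusted over 11555 genes by the method of Benjamini and Hochberg, 15 of the 35 genes were higher in macrophages, where 17.8% of all genes tested were, and 1 was lower, where 20.9% were. The share of higher genes was above that background and the share of lower ones below it. DESeq2 called 12 higher and 0 lower, and at an unadjusted p under 0.05 edgeR gave 16 and 2. The median log2 fold change of the 35 genes was 0.36, beside -0.17 over all genes tested. By role, the higher genes were 4 of 6 sensors, 4 of 5 genes of the oligoadenylate synthetase family and 3 of 4 genes of the Isg15 system. The rest were 2 of 5 effectors, 1 of 3 transcription factors and 1 of 4 Ifit genes. The macrophage sums mix the Lyve1 and the intima resident type. The latter made 24 of 81, 18 of 70 and 75 of 115 cells in descending a, descending b and the arch. Its level summed over the 35 genes was 1341, 997 and 1334 CPM, below the endothelium of each library at 3978, 4954 and 3595. The calls thus do not hold for each type, and the part of the mix in them was not tested.

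Ifi204, which detects DNA in the nucleus and cytosol, was at 159, 134 and 70.1 CPM in the macrophages of those libraries, in the order descending a, descending b, arch, and at 1.25, 2.96 and 1.66 in endothelium. The macrophage levels were far above the endothelial ones in each library, and the log2 fold change was 6.21 ± 0.29 (SE; edgeR's quasi-likelihood test, Benjamini-Hochberg adjusted p = 7.8e-15). Rsad2, also known as viperin, which makes a chain-terminating nucleotide, was at 138, 22.7 and 18.1 in macrophages and at 6.34, 6.95 and 1.33 in endothelium. Its log2 fold change was 3.80 ± 0.43 (edgeR's quasi-likelihood test, adjusted p = 9.19e-08), or 3.03 without descending a and 4.55 without descending b. The red-cell class had Rsad2 at 67.1 CPM in descending a and 56.4 in the arch, above the endothelium of those libraries and above the arch macrophages, and the part of RNA from such cells in the difference was not tested. Ddx60, a helicase that assists RNA sensing, was at 64.6, 71.1 and 20.4 in macrophages against 12.2, 12.0 and 5.91 in endothelium. Its log2 fold change was 2.58 ± 0.30 (edgeR's quasi-likelihood test, adjusted p = 1.61e-07).

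Active enzymes of the oligoadenylate synthetase family make the messenger that activates RNase L. Oas1a rose by 2.70 ± 0.32 on the log2 scale in macrophages, Oas2 by 5.08 ± 0.73, Oas3 by 3.94 ± 0.93 and Oasl1 by 2.69 ± 0.59, while Oasl2 was not called. Oas3 was 3.28 without the arch. The nucleic acid sensor Zbp1 rose by 2.22 ± 0.38, Dhx58, a regulator of RNA sensing, by 1.52 ± 0.39, and the GTPase Mx1 by 3.95 ± 0.78. Usp18, which removes Isg15 from proteins and restrains the receptor, rose by 1.90 ± 0.39, or 1.24 without descending a. Dhx58 lost its call without the arch, where the log2 fold change was 1.30.

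Irf7, the factor that amplifies interferon production, was at 112, 76.7 and 24.9 CPM in macrophages and at 27.9, 37.9 and 20.9 in endothelium. Its log2 fold change was 1.44 ± 0.27 (edgeR's quasi-likelihood test, adjusted p = 0.000109), and the arch was the library where both classes were closest. Isg15, the ubiquitin-like modifier, was at 229, 39.8 and 141 in macrophages and at 104, 113 and 71.5 in endothelium, so that descending b ran the other way. Its log2 fold change of 0.79 ± 0.29 (edgeR's quasi-likelihood test, adjusted p = 0.0327) was 0.39 without descending a and 0.54 without the arch, neither past the threshold, and 1.42 without descending b. Ifit2 rose by 1.70 ± 0.53, but by 0.50 without descending a, where it lost its call, and by 2.29 without descending b.

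Igtp, an immunity-related GTPase, was the gene called lower in macrophages. It was at 35.2, 25.6 and 41.9 CPM there and at 43.1, 150 and 82.6 in endothelium, with a log2 fold change of -0.93 ± 0.28 (edgeR's quasi-likelihood test, adjusted p = 0.00963). Without descending b it was -0.38 and not called. Trim30a, a ubiquitin ligase, rose by 0.55 ± 0.19 and lost its call without descending a or without descending b, at 0.51 and 0.45. Ifit3 was at 147, 39.8 and 41.9 in macrophages and at 63.1, 89.7 and 78.1 in endothelium, Bst2 at 317, 381 and 271 against 371, 475 and 418, and Ifitm3 at 2613, 2694 and 1057 against 2564, 3059 and 2213. None of the 3 was called. Macrophages also carried UMIs of other cells: the red-cell markers summed to 6252, 901 and 5923 CPM there and to 1436, 751 and 1554 in endothelium.

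Fibroblasts were compared with endothelium in the same way. Of 33 genes tested, 8 were higher, beside 25.9% of all genes, and 11 were lower, beside 26.3%, so both counts were near the background. DESeq2 called 9 higher and 7 lower. The median log2 fold change was -0.22, beside -0.03 over all genes, and was -0.43 without the arch, where 18 were lower. Without descending b 7 were lower.

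Ifi204 led in fibroblasts too, at 88.9, 114 and 69.0 CPM against 1.25, 2.96 and 1.66 in endothelium. The log2 fold change was 5.69 ± 0.17 (edgeR's quasi-likelihood test, adjusted p = 5.91e-08). Irf7 was at 56.6, 81.7 and 52.1 in fibroblasts, above the endothelium of every library, with a log2 fold change of 1.31 ± 0.11 (edgeR's quasi-likelihood test, adjusted p = 1.3e-05). Usp18 was at 34.4, 32.7 and 47.7 against 10.5, 11 and 7.82, a log2 fold change of 2.13 ± 0.20. Zbp1 rose by 1.96, Ifit2 by 1.62, Oas2 by 2.57 and Cmpk2, which makes nucleotide precursors beside Rsad2, by 1.04.

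The genes lower in fibroblasts included all 3 immunity-related GTPases. Ifi47 was at 16.9, 19.2 and 23.8 CPM there against 57.8, 110 and 60.1 in endothelium, with a log2 fold change of -1.74 ± 0.20 (edgeR's quasi-likelihood test, adjusted p = 8.96e-05). Igtp was -1.47 ± 0.22 and Irgm1, which also guides autophagy, -0.83 ± 0.21. Irgm1 was -0.47 without descending b and not called. Ifi44, of less known function, was at 1.06, 1.89 and 1.10 in fibroblasts against 13.8, 20.2 and 5.24, a log2 fold change of -3.04 ± 0.32 (edgeR's quasi-likelihood test, adjusted p = 6.19e-05). Parp14, an ADP-ribosyltransferase, was -0.90 on the same scale, Bst2 -0.65 and Trim30a -0.66. Bst2 was at 224, 266 and 234 in fibroblasts, below the endothelium of each library.

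Ifit3b was -1.40 in fibroblasts, or -2.02 without the arch. Ifit3 was at 33.9, 31.4 and 90.2 in fibroblasts of descending a, descending b and the arch against 63.1, 89.7 and 78.1 in endothelium, so the arch ran opposite to the descending libraries, and it was not called. Ifit1 was at 61.4, 48.4 and 114 against 46.6, 53.7 and 28.4, called higher by 0.94 ± 0.33 (edgeR's quasi-likelihood test, adjusted p = 0.0404). Without the arch it was 0.27 and without descending a 1.14, neither past the threshold. Isg15 was at 97.9, 83.6 and 122 and Ifitm3 at 2389.7, 2886 and 2228 in fibroblasts, and neither was called against endothelium. The 4 further genes called past the 15 with the lowest adjusted p were Xaf1, Ddx58, Herc6 and Ifit1. Xaf1 lost its call without descending a at -0.43 or without descending b at -0.35, Ddx58 at -0.42 or -0.36, and Herc6 at -0.58 or -0.33.

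**Figure D2:**
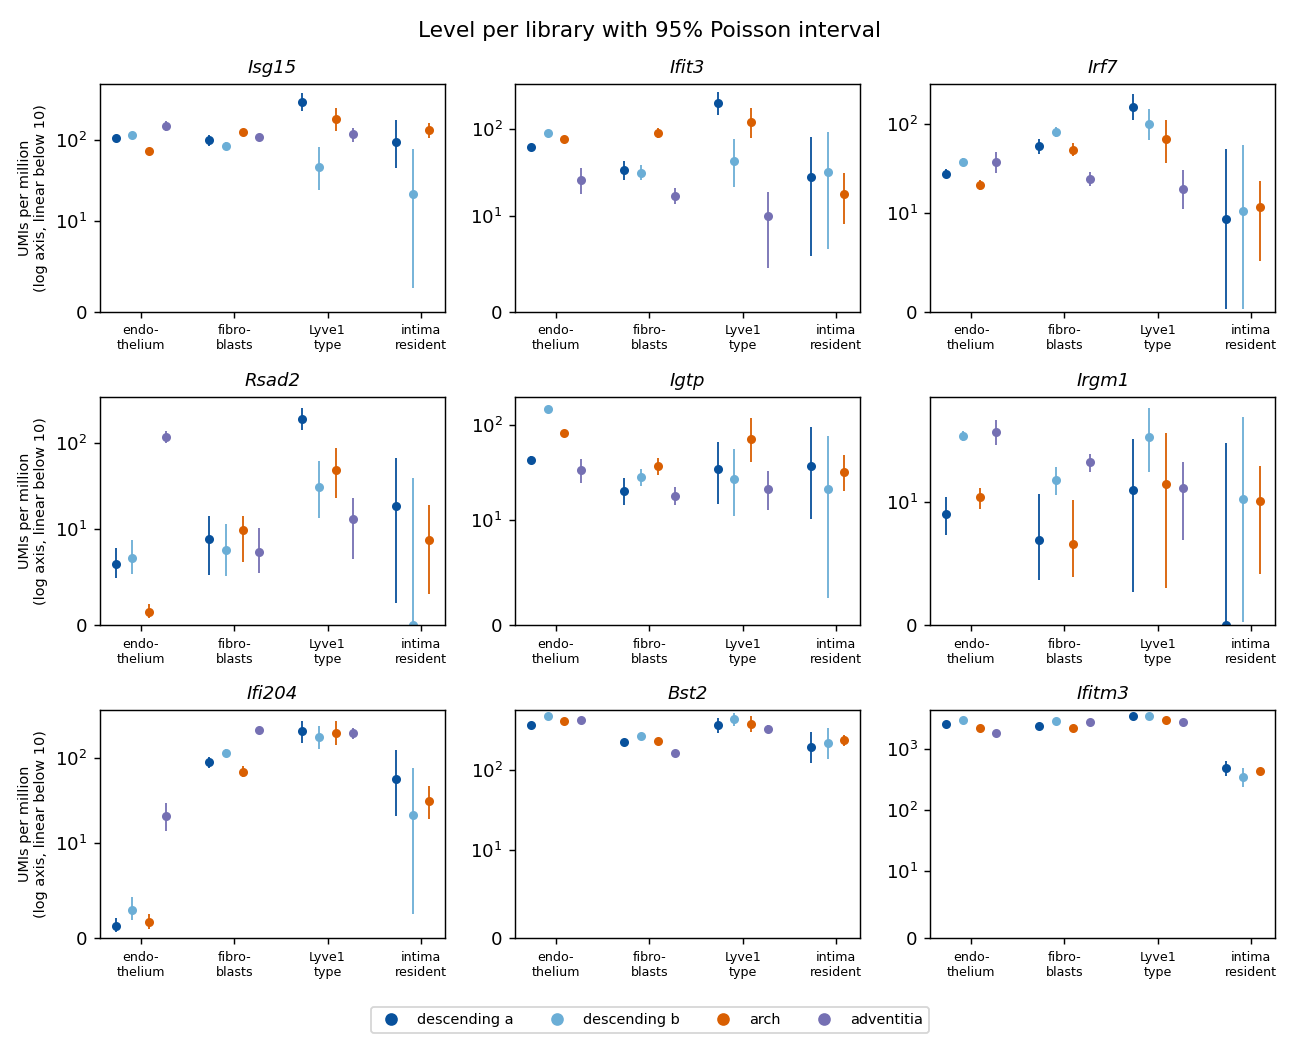
Level in CPM (log axis, linear below 10) of 9 of the genes in endothelium, fibroblasts and both macrophage types, 1 point per library with its 95% Poisson interval. Ifi204 is near 0 in intimal endothelium and high in fibroblasts and the Lyve1 type, Ifitm3 is lowest in the intima resident type, and Igtp and Irgm1 differ between the descending libraries in endothelium.

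The macrophage types were compared within the same libraries, and Ifitm3, Ifi204 and Irf7 were higher in the Lyve1 type. Ifitm3 was at 3583, 3552 and 3089 CPM in the Lyve1 type of descending a, descending b and the arch and at 488, 350 and 436 in the intima resident type. Every Lyve1 value was several times every intima resident value, with a log2 fold change of 2.92 ± 0.20 (edgeR's quasi-likelihood test, adjusted p = 6.39e-09). Ifi204 was at 205, 175 and 198 against 56.3, 21.2 and 31.0, a log2 fold change of 2.43 ± 0.31 (edgeR's quasi-likelihood test, adjusted p = 1.11e-05). Irf7 was at 158, 101 and 67.7 against 9.38, 10.6 and 11.8, a log2 fold change of 2.82 ± 0.44 (edgeR's quasi-likelihood test, adjusted p = 0.000105), or 3.59 without the arch. In the intima resident type 3 UMIs in a library are worth 28.1, 31.8 and 4.43 CPM. The Irf7 values of the descending libraries and the Ifi204 value of descending b lie below that floor.

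The other called genes were Ddx60 (3.55 ± 0.57), Rtp4, a chaperone of receptors at the cell surface (2.05 ± 0.33), Trim30a (2.03 ± 0.37, or 3.22 without the arch), Ifi47 (2.19 ± 0.48), Oasl2 (2.04 ± 0.46), Bst2 (0.76 ± 0.21), Oas1a (1.19 ± 0.39), Isg15 (0.80 ± 0.29) and Parp14 (1.28 ± 0.46), all as log2 fold changes. Bst2 was at 372, 439 and 382 in the Lyve1 type against 197, 223 and 238. Isg15 was at 291, 46.6 and 179 against 93.8, 21.2 and 130, higher in the Lyve1 type of each library but by unequal amounts. Its intima resident value in descending b lies below the floor of 3 UMIs. Ifit3 was at 201, 42.7 and 121 against 28.1, 31.8 and 17.7, with the intima resident values of the descending libraries at that floor. It was one of the 22 that did not pass the filter on low counts. Ifi35 was the only gene tested and not called, at 0.06.

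In all, 13 of the 35 genes passed that filter, 12 of them were called higher and 0 lower, where 14.5% of the 2970 genes tested were higher and 12.1% lower. DESeq2 called 7 higher and 0 lower, and the unadjusted counts by edgeR were 12 and 0. Most genes of such small sums pass the filter through the group where they are high, so this count is no measure of the list. Several calls rested on single libraries: Isg15 lost its call without descending a (0.43) or descending b (0.70) and was 1.48 without the arch, Oasl2 lost it without the arch (1.18), Oas1a (1.00) and Bst2 (0.60) lost it without descending b, and Parp14 lost it without descending a (1.28) or descending b (0.89) and was 2.11 without the arch. The Lyve1 type of descending a carried red-cell markers at 8298 CPM in sum, against 982 in descending b and 2030 in the arch, and their part in the differences was not tested.

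In the Lyve1 type of the intimal libraries a few cells carried much of the RNA of these genes. Without Bst2 and Ifitm3, 1 cell of descending a held 30.1% of the UMIs of the 35 genes in its sum, and 5 cells held 66.7%. That cell had 189 such UMIs among 5068 UMIs and a doublet score of 0.0245. Counted over all 35 genes, with Bst2 and Ifitm3, it had a UMI of 26. The 5 highest cells held 38.3% in descending b, 52.4% in the arch and 9.65% in the adventitia. In endothelium 1 cell held at most 2.36% in any library and in fibroblasts at most 7.52%. These shares depend on the number of cells in a sum, which was 57, 52, 40 and 266 for the Lyve1 type and 1462, 1285, 1243 and 370 for endothelium in the order of the libraries. Without the highest cell the level of the 33 genes in the Lyve1 type fell from 2685 to 1918 CPM in descending a, from 1460 to 1400 in descending b, from 2141 to 1802 in the arch and from 989 to 966 in the adventitia.

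**Figure D3:**
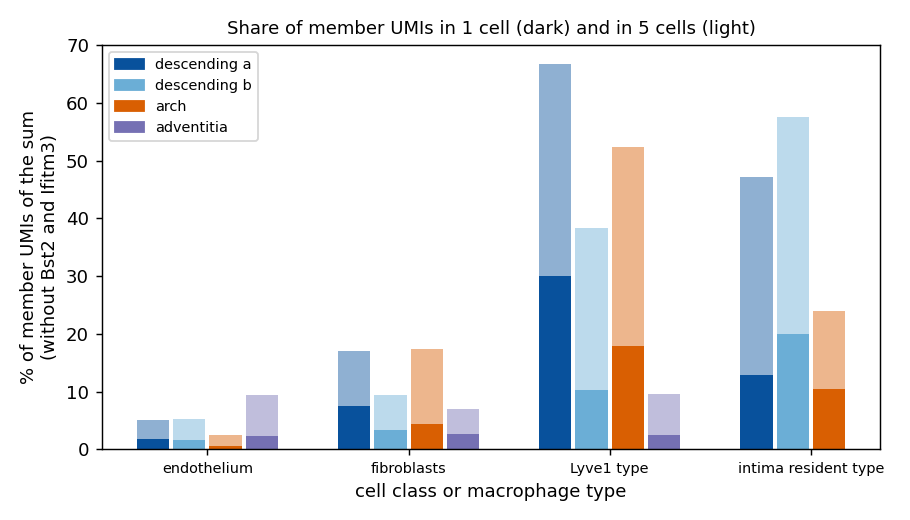
Share of the UMIs of the 35 genes, without Bst2 and Ifitm3, held by the 1 cell (dark) and the 5 cells (light) with the most of them, in percent of the sum of each class or type and library. The bars of the Lyve1 type reach 66.7% in descending a while those of endothelium stay low. The bars of the intima resident type are tall too, but its sums in the descending libraries hold few UMIs.

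The share of single cells with many of the genes was counted with each cell thinned to 2000 UMIs, since deeper cells show more genes. Many means a UMI of at least 6 of the 35. Of 11124 cells deep enough, 840 had that many, and the highest count in a cell was 20. In the Lyve1 type the share was 19.6% in descending a (11 of 56 cells; 95% exact Clopper-Pearson interval 10.2 to 32.4), 18.4% in descending b (9 of 49; 8.76 to 32.0) and 22.5% in the arch (9 of 40; 10.8 to 38.5). In the adventitia it was 7.66% (19 of 248; 4.68 to 11.7), whose interval overlaps each of the intimal ones. In the intima resident type it was 0 of 22 cells in descending a, which allows a share of up to 13.6% at 3 cells of the total (exact upper limit 15.4%), 0 of 16 in descending b, which allows up to 18.8% (exact upper limit 20.6%), and 1 of 75 in the arch (1.33%; 0.0338 to 7.21). Intervals cover counting error only.

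Endothelium had such cells at 9.55% in descending a (135 of 1414; 8.07 to 11.2), 16.6% in descending b (199 of 1200; 14.5 to 18.8), 8.93% in the arch (111 of 1243; 7.40 to 10.7) and 10.3% in the adventitia (29 of 281; 7.02 to 14.5). Descending b stood above the others, and its interval does not meet those of descending a and the arch. Fibroblasts had 9.94%, 7.68%, 10.3% and 3.85% in the same order. Mesothelial-like cells had 15.9% in the arch (7 of 44) and 32.7% in the adventitia (52 of 159). The red-cell class had 0 of 41, 0 of 14, 0 of 55 and 0 of 374 cells in the 4 libraries, which allows up to 7.32%, 21.4%, 5.45% and 0.802% at 3 cells of the total. The exact Clopper-Pearson upper limits were 8.60%, 23.2%, 6.49% and 0.981%. B-cell-like cells of the adventitia had 0.524% and T-cell-like cells 3.14% in the arch and 1.21% in the adventitia. The mean over the 3 intimal libraries was 20.2% ± 2.12 (SD, n = 3) in the Lyve1 type, 11.7% ± 4.25 in endothelium, 9.31% ± 1.43 in fibroblasts and 0.444% ± 0.770 in the intima resident type. Unthinned, the same means were 48.1%, 62.1%, 33.1% and 28.0%. Cells under 2000 UMIs were left out, 56, 140, 0 and 2724 in the order of the libraries.

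**Figure D4:**
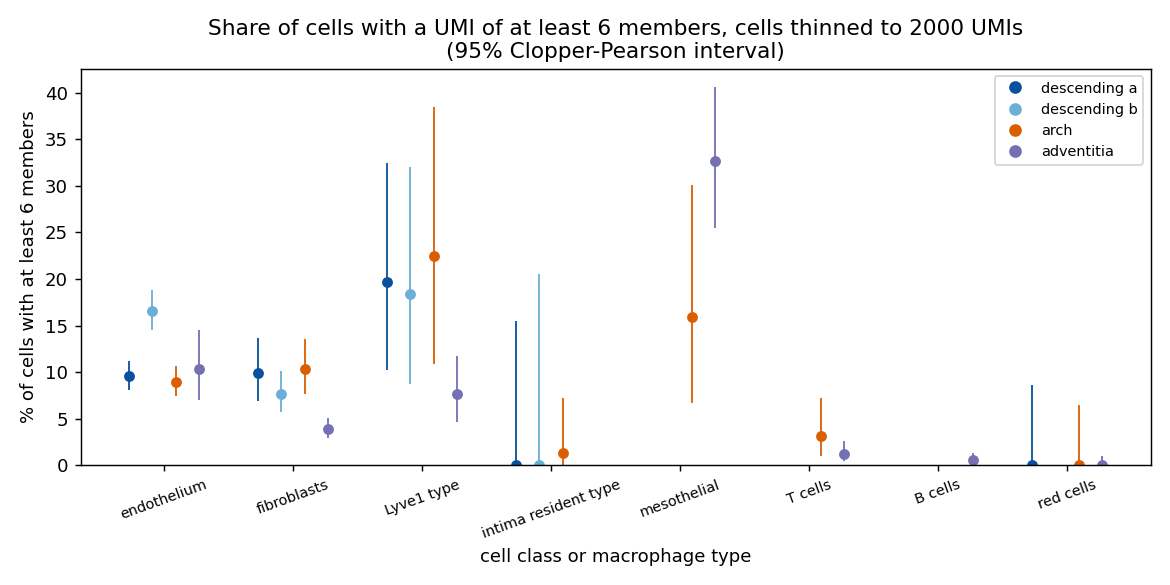
Share of cells with a UMI of at least 6 of the 35 genes, in percent of cells thinned to 2000 UMIs, 1 point per library with its 95% Clopper-Pearson interval. The Lyve1 type of the intima lies near 20% and the intima resident type near 0, and descending b is the highest endothelial point.

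Cells with many of the genes had a median of 5504 UMIs before thinning, against 4046 in the others, and a median doublet score of 0.0199 against 0.0264. These medians pool all classes and libraries, which differ in depth and in their share of such cells. The rule counts the 35 genes, so their own shares only describe such cells: Isg15 had a UMI in 53.2% of them and in 10.5% of other cells of the same classes and libraries, Ifit1 in 34.0% against 3.72%, and Rtp4 in 38.9% against 8.12%. Outside the list, the genes with the largest gain were Iigp1, an immunity-related GTPase, with a UMI in 30.8% against 14.0%, the immunoproteasome subunit Psmb8 (52.6% against 40.3%), the guanylate-binding proteins Gbp7 (23.8% against 11.6%) and Gbp2 (27.1% against 15.5%) and Ifi27l2a (48.7% against 36.9%). Sp100, Psmb10, Phf11d, Gm4951 and Ifi203 followed.

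Within thinned endothelial cells, Ifit3 had a UMI in 30.5% of the cells with Ifit1 and in 8.10% of those without in descending a, in 29.9% against 12.6% in descending b, in 35% against 12.3% in the arch and in 26.1% against 1.94% in the adventitia. Cells with Ifit1 thus had Ifit3 more often in each library, though the adventitial share rested on 6 of 23 cells. Isg15 was found in 44.8% of cells with Ifit1 against 11.2% without in descending a, in 33.6% against 13.1% in descending b and in 20% against 10.5% in the arch. The GTPase Igtp was found in 10.3% of cells with Ifi47 against 6.04% without, 26.6% against 20.6% and 23.6% against 12.5% in the same order. Ifit3 was found in 14.1% of cells with Ifi47 against 9.22% without, 16.4% against 13.7% and 12.6% against 13.4%. Igtp was found in 10.5% of cells with Ifit1 against 6.19% without, 26.2% against 21.2% and 23.3% against 13.2%. Igtp was thus also more frequent in cells with Ifit1 in these 3 libraries. In adventitial endothelium it was less frequent, in 4.35% (1 of 23 cells) against 6.98%. In fibroblasts Ifit3 was found in 16.7% of the cells with Ifi47 (4 of 24) against 3.57% without in descending b. In the adventitia it was found in 5.97% (4 of 67) against 1.99%.

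The arch was then set against the descending libraries, 1 library against 2, in a fit with 1 residual degree of freedom. Its p-values measure only the spread between descending a and descending b, which edgeR took as the same for every gene. The arch and the adventitia are 1 library each, so no spread among such libraries was measured. Region, age, mice and library cannot be told apart. In endothelium 10 of the 34 genes tested were lower in the arch, where 5.92% of 12981 genes were, and 0 were higher, where 7.27% were. Unadjusted, 15 were lower and 0 higher, and DESeq2 called 1 lower (Rsad2) and 0 higher. The median log2 fold change was -0.40, beside -0.01 over all genes. The lower genes came from every role: 2 of 6 sensors, 2 of 4 effectors tested and 1 each of the transcription factors, Ifit genes, oligoadenylate synthetases, Isg15 system, GTPases and further genes.

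Rsad2 was at 1.33 CPM in arch endothelium against 6.34 and 6.95 in descending a and b, a log2 fold change of -2.23 ± 0.36 (edgeR's quasi-likelihood test, adjusted p = 1.66e-08). Ifi44 was at 5.24 against 13.8 and 20.2, a log2 fold change of -1.62 ± 0.27 (edgeR's quasi-likelihood test, adjusted p = 5.54e-08). The arch value lay below both descending values in these. Irgm1 was at 11.2 in the arch against 9.03 and 40.0, between the descending libraries, and its log2 fold change of -1.03 ± 0.20 was 0.40 without descending b and -1.75 without descending a.

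Ifit1 fell by 0.75 on the log2 scale (28.4 CPM in the arch against 46.6 and 53.7), Cmpk2 by 1.06, Ddx60 by 0.96, Irf7 by 0.58 (20.9 against 27.9 and 37.9), Ifih1 by 0.56, Isg15 by 0.53 (71.5 against 104 and 113) and Oas1a by 0.78. Ifit3 at 78.1 lay between 63.1 and 89.7 and was not called, nor were Bst2 at 418, between 371 and 475, and Ifitm3 at 2213, below 2564 and 3059. The T-cell markers summed to 73.4 CPM in arch endothelium against 3.46 and 6.72 in the descending libraries, the macrophage markers to 224 against 100.5 and 73.4, and the smooth muscle markers to 561 against 174 and 137. Their part in the difference was not tested.

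In arch fibroblasts Ifit3, Ifit1 and Ifit3b were higher than in the descending libraries. Of 31 genes tested, 3 were higher, beside 2.80% of 11564 genes, and 0 were lower, beside 2.22%. Unadjusted, 9 were higher and 3 lower, and DESeq2 called 0 and 0. Ifit3 was at 90.2 CPM in the arch against 33.9 and 31.4, a log2 fold change of 1.49 ± 0.22 (edgeR's quasi-likelihood test, adjusted p = 2.06e-09). Ifit1 was at 114 against 61.4 and 48.4, a log2 fold change of 1.10 ± 0.20 (edgeR's quasi-likelihood test, adjusted p = 7.46e-06), and Ifit3b at 20.9 against 10.6 and 5.66, one of 1.47 ± 0.36 (edgeR's quasi-likelihood test, adjusted p = 0.0023). In all 3 the arch lay above both descending libraries. Isg15 at 122 was above 97.9 and 83.6, and Irf7 at 52.1 was below 56.6 and 81.7, neither past the threshold, and Bst2 (234 against 224 and 266) and Ifitm3 (2228 against 2389.7 and 2886) were not called. The median log2 fold change was 0.40, beside -0.01 over all genes. Arch fibroblasts also held T-cell markers at 91.7 CPM in sum against 2.65 and 6.28, and smooth muscle markers at 330.5 against 97.4 and 60.01, whose part was not tested.

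A test of the difference between the classes, added after seeing the data, asked whether the change from descending to arch was the same in fibroblasts and in endothelium. For 11 of 33 genes it was more positive in fibroblasts and for 0 more negative, where 1.45% and 1.98% of 12744 genes were. Unadjusted the counts were 19 and 0, and DESeq2 called 1 (Ifit1) and 0. Ifit1 differed by 1.87 ± 0.20 on the log2 scale (edgeR's quasi-likelihood test, adjusted p = 6.21e-17), Ifit3 by 1.42 ± 0.21 (edgeR's quasi-likelihood test, adjusted p = 7.6e-09) and Isg15 by 1.00 (edgeR's quasi-likelihood test, adjusted p = 5.83e-05). The others were Cmpk2, Rsad2, Oasl2, Ifit3b, Rtp4, Igtp, Ifi47 and Usp18.

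**Figure D5:**
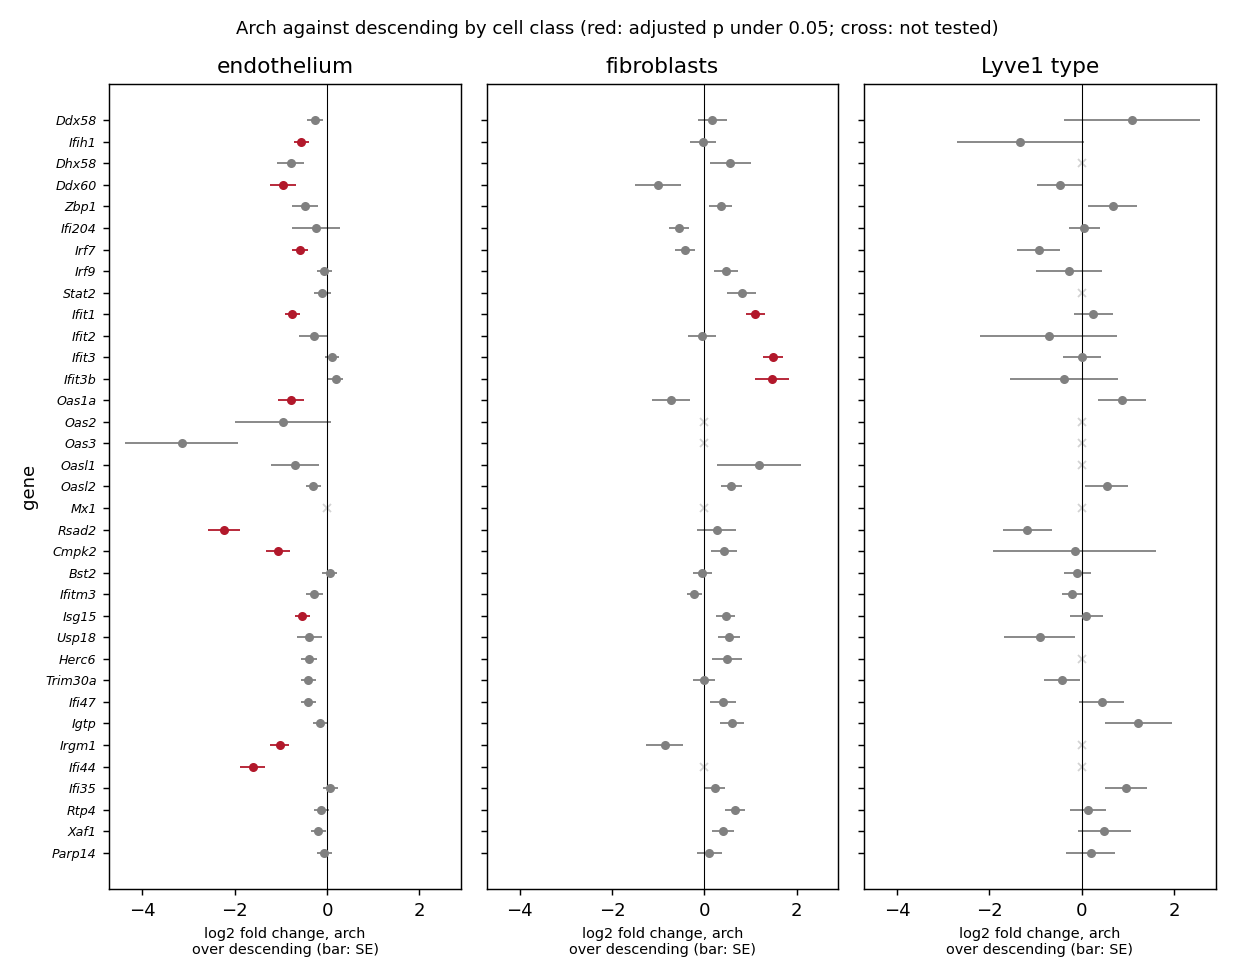
Log2 fold change of each of the 35 genes, arch over descending, in endothelium, fibroblasts and the Lyve1 type (point, with its SE as a bar; red, adjusted p under 0.05; cross, not tested). The 10 red points of endothelium all lie left of 0, the 3 red points of fibroblasts lie right of it, and the Lyve1 type has none.

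Over all macrophages 6 of 32 genes were lower in the arch, beside 2.83% of 7310 genes, and 0 were higher, beside 2.71%. Unadjusted, 10 were lower and 0 higher, and DESeq2 called 1 and 0. Ifitm3 was at 1057 CPM in the arch against 2613 and 2694, a log2 fold change of -1.23 ± 0.21 (edgeR's quasi-likelihood test, adjusted p = 6.65e-07), and Irf7 was at 24.9 against 112 and 76.7, one of -1.82 ± 0.43. Rsad2 was at 18.1 against 138 and 22.7, a log2 fold change of -2.04 ± 0.48 that was -0.21 without descending a and -2.83 without descending b. Ddx60 was -1.64, Ifi204 -0.96 and Usp18 -1.75, the last -0.92 without descending a. Isg15 at 141 lay between 229 and 39.8, Ifit3 at 41.9 between 147 and 39.8, and Bst2 at 271 lay below 317 and 381, all without a call.

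The class holds other macrophages in the arch than elsewhere. Cluster 22 held 64.3% of the arch macrophages and 29.6% and 24.3% of those of descending a and b, and cluster 9 held 35.7% against 70.4% and 75.7%. The mix of types thus differed between the arch and the descending libraries, and its part in the values of the class was not tested. Each type was also compared on its own. In the arch Lyve1 type, of 26 genes that passed the filter, 0 were called higher and 0 lower, beside 0.571% and 0.643% of 4202 genes. Unadjusted, 1 was higher and 2 lower, and DESeq2 called 0 and 0. Ifitm3 was at 3089 there against 3583 and 3552, Irf7 at 67.7 against 158 and 101, Isg15 at 179 between 291 and 46.6, Ifit3 at 121 between 201 and 42.7, and Bst2 at 382 between 372 and 439. The median log2 fold change was 0.03, beside -0.0043 over all genes. In the intima resident type 4 genes could be tested, 0 were called higher and 0 lower, beside 0.864% and 0.540% of 1851 genes, with 1 higher and 0 lower unadjusted and 0 by DESeq2. Between macrophages and endothelium the change from descending to arch differed for 1 of 35 genes. It was Ifitm3, more negative in macrophages by 0.93 on the log2 scale, at -0.93 ± 0.27 (edgeR's quasi-likelihood test, adjusted p = 0.034), beside 1.05% of 12567 genes more negative and 0.557% more positive. Unadjusted, 2 were more positive and 4 more negative, and DESeq2 called 0 and 0. Between the Lyve1 type and endothelium it differed for 0 of 35, beside 0.220% and 0.440% of 12283 genes, with 3 more positive and 0 more negative unadjusted and 0 by DESeq2.

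The adventitia was compared with the same descending libraries, so these comparisons share their controls with those of the arch. In endothelium 8 of 34 genes were higher in the adventitia, beside 20.3% of genes, and 12 lower, beside 19.2%, and DESeq2 called 3 and 2. The share of higher genes was near the background and that of lower genes above it. Rsad2 was at 119 CPM in the adventitia against 6.34 and 6.95, a log2 fold change of 4.25 ± 0.23 (edgeR's quasi-likelihood test, adjusted p = 1.07e-72). The red-cell class of the adventitia had Rsad2 at 63.3. Oas2 was at 14.9 against 0.288 and 0.797, a log2 fold change of 4.88 ± 0.70 (4.29 without descending a, 5.71 without descending b), and Ifi204 at 20.6 against 1.25 and 2.96, one of 3.40 ± 0.50 (4.12 without descending b). The red-cell class had Ifi204 at 10.8 in the adventitia. These endothelial cells also carried the markers of macrophages at 483 CPM in sum (9 of 9 with a UMI) against 100.5 and 73.4, of neutrophils at 429 against 3.94 and 5.69 and of red cells at 9179 against 1436 and 751. The part of those cells in the differences was not tested.

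Oasl2 was lower, at 9.25 CPM in adventitial endothelium against 53.0 and 64.4, a log2 fold change of -2.58 ± 0.31 (edgeR's quasi-likelihood test, adjusted p = 9.48e-16). Ifit3 was at 25.6 against 63.1 and 89.7, one of -1.49 ± 0.24, and Igtp at 33.5 against 43.1 and 150, one of -1.44 ± 0.22 that was -2.08 without descending a and -0.27 without descending b. Ifi47 was -1.40, Ifit3b -1.32, Ifih1, which detects long double-stranded RNA, -1.01, Oas1a -2.42, Rtp4 -0.60 and Ifitm3 -0.51 (1861 against 2564 and 3059). Isg15 rose by 0.52 (147 against 104 and 113), Usp18 by 1.03 and Irgm1 by 0.91, the last by 0.18 without descending a and 2.33 without descending b. Irf7 at 37.7 lay between 27.9 and 37.9 and Bst2 at 431 between 371 and 475, and neither was called. The 5 further calls were Trim30a, Oasl1, Dhx58, Zbp1 and Ifi35, and Zbp1, at -1.48, was -0.80 without descending b.

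In fibroblasts 3 of 31 genes were higher in the adventitia, beside 14.4% of genes, and 9 lower, beside 10.7%, and DESeq2 called 1 (Ifi204) and 0. The share of higher genes was below the background and that of lower genes above it. Ifi204 was at 210 CPM against 88.9 and 114, a log2 fold change of 1.20 ± 0.19 (edgeR's quasi-likelihood test, adjusted p = 1.3e-08). Irgm1 (22.9 against 6.88 and 15.7) rose by 1.07, or 1.92 without descending b, and Ifi47 (28.5 against 16.9 and 19.2) by 0.80. Irf7 was at 24.3 against 56.6 and 81.7, a log2 fold change of -1.37 ± 0.23 (edgeR's quasi-likelihood test, adjusted p = 3.36e-08), Usp18 at 10.8 against 34.4 and 32.7, one of -1.46, and Ifit2 at 7.02 against 20.1 and 19.8, one of -1.34. Oas1a, Cmpk2, Ifit3, Ifit1, Oasl2 and Dhx58 fell by 0.65 to 1.41, Ifit3 standing at 17 against 33.9 and 31.4. Isg15 (108 against 97.9 and 83.6), Bst2 (166 against 224 and 266) and Ifitm3 (2766 against 2389.7 and 2886) were not called. The intimal fibroblasts lay mainly in cluster 2 and the adventitial ones in clusters 7 and 11. Macrophage markers in fibroblasts summed to 479.6 in the adventitia against 110 and 84.8, and endothelial markers to 102 against 864 and 693.

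Among macrophages 9 of 32 genes were lower in the adventitia, beside 5.47% of genes, and 0 higher, beside 7.33%. Unadjusted, 10 were lower and 0 higher, and DESeq2 called 1 and 0. All 4 Ifit genes were among them. Of the 657 adventitial macrophages, 266 were of the Lyve1 type and the others lay in unnamed subclusters. Ifit3 was at 8.12 CPM in the adventitial macrophages against 147 and 39.8, Rsad2 at 9.28 against 138 and 22.7, Ifit1 at 12.4 against 132 and 22.7 and Irf7 at 27.1 against 112 and 76.7. In each the adventitia lay below both descending libraries, and Isg15 (108 between 229 and 39.8), Bst2 (267 against 317 and 381) and Ifitm3 (2414 against 2613 and 2694) were not called. In the Lyve1 type, compared after seeing the data, 9 of 26 were lower, beside 4.12% of genes, and 0 higher, beside 7.21%, with 11 and 0 unadjusted and 0 and 0 by DESeq2. Ifit3 was at 9.99 CPM in the Lyve1 type of the adventitia against 201 and 42.7, a log2 fold change of -3.30 ± 0.48 (edgeR's quasi-likelihood test, adjusted p = 5.16e-10) that was -1.81 without descending a and -4.03 without descending b. Irf7 was at 18.9 against 158 and 101, one of -2.51 ± 0.43 (edgeR's quasi-likelihood test, adjusted p = 2e-07). Rsad2 was at 13.3 against 192 and 31.1, one of -2.77 ± 0.49 that was -0.95 without descending a and -3.56 without descending b.

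Ifit1 in the Lyve1 type was at 16.6 against 184 and 23.3, so that its log2 fold change of -2.34 ± 0.46 was -0.22 without descending a and -3.18 without descending b. Ddx60 was -1.97, Oas1a -2.19, Usp18 -2.39, Ifi47 -1.36 and Parp14 -1.42. Isg15 at 115 lay between 291 and 46.6, and Bst2 (334 against 372 and 439) and Ifitm3 (2836 against 3583 and 3552) were not called. Without the highest cell of each sum 5 genes were called lower. Over the whole class Ifit3 was -3.30 ± 0.44 (-2.05 without descending a, -3.96 without descending b), Rsad2 -2.89 (-1.05 and -3.68), Ifit1 -2.43 (-0.64 and -3.21), Ddx60 -2.49, Irf7 -1.60, Usp18 -1.90 (-1.05 without descending a), Ifit3b -3.06 (0.34 and -4.00), Ifit2 -3.32 (-4.25 without descending b) and Oas1a -1.40.

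The immunity-related GTPases differed in level between the descending libraries in endothelium. Igtp was at 43.1 CPM in descending a and 150 in descending b (3.48 times), Irgm1 at 9.03 and 40.0 (4.43 times) and Ifi47 at 57.8 and 110 (1.91 times). Other members also had a higher level in descending b, with ratios of 2.37 for Ifi204, 2.23 for Zbp1, 1.69 for Oasl1, 1.46 for Ifi44, 1.42 for Ifit3 and 1.36 for Irf7. The ratio was 1.15 for Ifit1, 1.08 for Isg15, 1.07 for Ifi35 and 0.972 for Trim30a. Zbp1 and Ifi204 thus had ratios above that of Ifi47. The difference in Igtp was present in each endothelial cluster with at least 20 cells in both libraries. Igtp was at 45 against 152 in cluster 0, 38.8 against 152 in cluster 5, 48.7 against 161 in cluster 13 and 17.4 against 104 in cluster 10. Cluster 8, with 11 and 24 cells, was left out. In fibroblasts the ratios were 1.41 for Igtp, 2.28 for Irgm1 and 1.13 for Ifi47. With 1 library on each side there is no test.

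Of the pathway around these genes, 20 interferon ligands were listed and 17 had no UMI in any library. Ifnb1 had 6 UMIs, all in the adventitia and 4 of them in macrophages, and Ifnab had 1. Ifng had 1, 3, 6 and 345 UMIs in descending a, descending b, arch and adventitia, of which 274 in the adventitia lay in cluster 4, led by Ccl5 and Nkg7, and 42 in T-cell-like cells. No ligand passed the filter in any comparison. Among receptors and kinases 5 of 9 were higher in macrophages than in endothelium and the others were not called, with Ifngr2 at a log2 fold change of 2.87 and Ifnar1 and Ifnar2 each at 1.08. Of the genes that induce interferon 6 of 13 were higher in macrophages and the others not called, led by Tlr7 (8.37), Irf5 (7.11), Irf8 (6.01) and Cgas (2.49), while 2 of 4 tested were lower in the Lyve1 type than in the intima resident type, Irf8 (-1.93) and Irf5 (-0.94).

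Of the other interferon-induced genes, 10 of 24 were higher and 3 lower in macrophages than in endothelium, and 7 of 14 higher and 1 lower in the Lyve1 than in the intima resident type, with Mnda at 4.31, Ifi27l2a at 2.81 and Ly6e at 2.78. In arch against descending endothelium 6 of 24 were lower and the others not called. Of the genes weighted to interferon-gamma, 13 of 16 were lower in fibroblasts than in endothelium and 2 higher, with Gbp4 at -3.49, Tgtp2 at -3.37, Nlrc5 at -2.13 and the chemokine Cxcl10 at 2.70, and 7 of 18 were lower in macrophages and 3 higher. Of the negative regulators 4 of 9 were higher and 4 lower in fibroblasts, with Socs3 at 4.41 and Socs1 at 3.63. The background shares of each comparison are those given above. Most genes of the small macrophage type sums pass the filter through the group where they are high. The counts between the types, here and for the genes that induce interferon, are thus no measure of those lists.

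Over the 30 sums of at least 20 cells, the gene outside the list whose log2 level correlated best with the mean of the 35 was Npc1, a cholesterol carrier of the lysosome (Pearson r = 0.87), among 12519 genes ranked. Gna12, Ccdc97, 2610507B11Rik, Sash1, St6galnac6, Abcc5, Tfe3, Ppp4r1 and Plxnb2 followed, down to 0.84. Among the listed genes that were ranked, which leave out Mx1, Xaf1 (0.89), Ifih1 (0.88) and Rtp4 (0.86) followed the mean of the list best and Rsad2 (0.13) least. Each listed gene is itself part of that mean, which the genes outside the list are not. The sums share libraries and differ in depth, so these values are a description.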

How the data were processed

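Single-cell RNA was measured in 4 libraries made with a 10x Chromium 3' kit, per the labels' protocols. Per the submitters' processing notes the tools were Cell Ranger 2.1.2 with mm10. What the authors deposited are UMI counts for each gene in each barcode, and the annotation release and the strand setting are not given in the sources used here. They held 13715023, 13181305, 18624525 and 29370967 UMIs in descending a, descending b, arch and adventitia, over 2095, 2178, 2187 and 9347 barcodes.

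Barcodes under 200 genes or above 10% mitochondrial UMIs were dropped. The automatic doublet calls (6, 23, 17 and 2) were too few, so the highest Scrublet scores were removed instead, 42, 41, 58 and 646. Cells were clustered in scanpy 1.11.5 on 2000 variable genes, 30 components and 15 neighbours with Leiden (resolution 1.0, macrophages 0.5), leaving out 134 interferon genes, and named from 19 marker lists. Summed counts were tested in edgeR 4.0.16 (TMM, filterByExpr, quasi-likelihood, Benjamini-Hochberg, threshold 0.05) in R 4.3.3, with DESeq2 1.42.0 as an alternative. Comparisons of classes or types used the library as a block. Comparisons of regions used no block and had 1 residual degree of freedom. On simulated counts of the macrophage against endothelium comparison (11555 genes), 44% of 100 genes changed by log2 1 and 77% of 100 changed by log2 2 were recovered. For arch against descending endothelium (12981 genes) 65% and 87% were recovered. The shares were 26% and 58% for arch against descending macrophages (7310 genes) and 50% and 86% for the macrophage types (2970 genes). Of the calls on simulated counts, 5.47%, 3.18%, 3.45% and 3.55% were of unchanged genes, in the same order. The simulated counts took the spread estimated from the same sums, alike in every library. They cannot show what a spread among arch libraries would do.

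The listed genes, the pathway lists and the markers were chosen with earlier results of these data known. Genes past the threshold are named, up to 15 per comparison in order of adjusted p. Values per library are given for the 3 with the lowest adjusted p in each direction and for Isg15, Ifit3, Irf7, Bst2 and Ifitm3. Pathway genes are named in order of absolute fold change, up to 4 per list. Tests of the difference between classes and of the adventitial Lyve1 type were added after seeing the data. Alternatives were a filter on low counts against none, clustering with the listed genes, doublets kept, a stricter mitochondrial limit, each sum without its highest cell, other thresholds and depths for the share of cells, and each replicate left out.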

Additional observations from a re-analysis of the deposited data

Results flagged for a closer look

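These results differed between cell classes in a direct test of the difference. In each, the change from descending to arch in one class was set against the change in endothelium of the same 3 libraries, with edgeR (quasi-likelihood test, p-values adjusted after Benjamini and Hochberg) and 1 residual degree of freedom. The test was added after seeing the data. The arch is 1 library, so no spread among arch libraries was measured, and region, age, mice and library cannot be told apart. In fibroblasts against endothelium the difference on the log2 scale was 1.87 for Ifit1 (adjusted p = 6.21e-17), 1.42 for Ifit3 (adjusted p = 7.6e-09), 1.00 for Isg15 (adjusted p = 5.83e-05) and 1.52 for Cmpk2 (adjusted p = 0.00131). It was 2.51 for Rsad2 (adjusted p = 0.0022), 0.90 for Oasl2 (adjusted p = 0.00278), 1.34 for Ifit3b (adjusted p = 0.00403) and 0.81 for Rtp4 (adjusted p = 0.00649). It was 0.79 for Igtp (adjusted p = 0.0398), 0.87 for Ifi47 (adjusted p = 0.0426) and 0.93 for Usp18 (adjusted p = 0.0465). All 11 were more positive in fibroblasts, where 1.45% of 12744 genes were more positive and 1.98% more negative. DESeq2 called 1 of the 11, Ifit1, and without the cell with the most UMIs of the listed genes in each sum Ifit3b and Usp18 lost their calls. In macrophages against endothelium it was -0.93 for Ifitm3 (adjusted p = 0.034), a call that DESeq2 did not make and that was lost without those cells. Over all genes, 1.05% of 12567 were more negative in macrophages and 0.557% more positive. In the Lyve1 type against endothelium 0 of the listed genes differed past the threshold, beside 0.22% more positive and 0.44% more negative of 12283 genes. At an unadjusted p under 0.05, 3 of the listed genes were more positive, and DESeq2 called 0.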

How the results depend on the processing

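No paired analysis was possible because no number in the labels ties samples of different groups. The numbers below count the listed genes called, beside the count of the reported analysis, and medians are log2 fold changes. The causes of these changes were not tested.

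With DESeq2 the lower genes were 0 in place of 1 for macrophages against endothelium, 7 of 11 for fibroblasts against endothelium, 1 of 6 for arch macrophages, 1 of 9 for adventitial macrophages, 1 of 10 for arch endothelium, 2 of 12 for adventitial endothelium, 0 of 9 for adventitial fibroblasts and 0 of 9 for the adventitial Lyve1 type. Its higher genes were 7 in place of 12 for the Lyve1 against the intima resident type, 3 of 8 for adventitial endothelium, 0 of 3 for arch fibroblasts, 1 of 3 for adventitial fibroblasts and 1 of 11 for the difference between fibroblasts and endothelium, and the 1 gene of the macrophage difference was not called (0). With at most 5% mitochondrial UMIs, macrophages against endothelium had 0 lower, adventitial endothelium 5 higher and 7 lower with a median of 0.016 in place of -0.21, and the macrophage difference 0. Without the library block macrophages against endothelium had 0 lower. With no filter on low counts arch macrophages had 2 lower, and the medians were 0.36 for arch fibroblasts (reported 0.40) and 0.52 for the arch intima resident type (reported 0.16). With doublets kept, arch macrophages had 2 lower, arch endothelium 6 lower, adventitial fibroblasts 1 higher, the macrophage difference 0, and the median of arch fibroblasts was 0.33. Without the highest cell of each sum, arch macrophages had 3 lower and the adventitial Lyve1 type 5, the macrophage difference 1 higher and 0 lower, and the medians were 1.85 for the macrophage types (reported 2.04) and 0.45 for arch fibroblasts.

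Leaving out each library in turn gave 0 to 2 lower genes for macrophages against endothelium and 7 to 18 for fibroblasts against endothelium. The medians ranged from 0.13 to 0.55 for macrophages against endothelium, -0.43 to -0.14 for fibroblasts against endothelium, 1.92 to 2.23 for the macrophage types, -0.79 to -0.39 for arch macrophages, -0.78 to -0.45 for adventitial macrophages, 0.32 to 0.39 for arch fibroblasts, -0.34 to -0.19 for adventitial fibroblasts, 0.25 to 0.70 for the arch intima resident type and -1.27 to -0.31 for the adventitial Lyve1 type. Leaving out a descending library leaves no residual degree of freedom between regions, so those are values with no test. The direction turned for Ifit3b in adventitial macrophages (0.34 without descending a, -4.00 without descending b) and Irgm1 in arch endothelium (0.40 without descending b, -1.75 without descending a).

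The mean share of cells with many of the genes was 40.6% in endothelium at 4 genes, 3.52% at 8, 2.36% at 1000 UMIs and 62.1% unthinned. In fibroblasts it was 26.4%, 3.64%, 3.05% and 33.1%, and in the Lyve1 type 42.0%, 10.6%, 9.88% and 48.1%, with 16.6% when doublets were kept. In the intima resident type it was 8.36% at 4 genes and 28.0% unthinned. The intima resident sums of descending a and descending b are shallow, at 106641 and 94279 UMIs, while that of the arch held 677107. In the comparison of the macrophage types 22 of the 35 genes could not be tested. Intervals and floors cover counting error only.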

Other observations

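Mesothelial-like cells held the member of the oligoadenylate synthetase family Oasl2 at 306 CPM in the arch library (95% exact Poisson interval 258 to 360) and 265 in the adventitia (236 to 297). The endothelium of the same libraries had it at 45.4 and 9.25, and these mesothelial sums come from 44 and 162 cells. Isg15 was at 116 (86.8 to 151) in arch mesothelial-like cells and 321 (289 to 356) in the adventitial ones, and Ifi204 at 12.8 (4.71 to 27.9) and 121 (101 to 143). Ifit3 was at 130 (99.8 to 168) and 140.2 (119 to 164), values whose intervals overlap. With 1 library of each there is no test. In monocyte-like cells of the adventitia the sensor Zbp1 was at 145 (117 to 178) and Ifi204 at 148 (120.1 to 181), while Ifit3 was at 4.63 (0.956 to 13.5), so the level of the listed genes there came from few of them: Ifitm3 alone stood at 4866 (4697 to 5038).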
